A study of Mus musculus with 6 samples.

Results

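Hyaluronan is a long, unsulfated sugar chain of the extracellular matrix, and 9 genes that make, degrade or bind it are described here: the synthase genes Has1, Has2 and Has3, the hyaluronidase genes Hyal1 and Hyal2, the receptor gene Cd44, the hyaluronan-binding proteoglycan genes Vcan and Acan, and the link protein gene Hapln1. They were chosen by name, for their role and with earlier results of these data known, and are 9 of the 43629 genes in the deposited tables. RNA was sequenced from primary dermal fibroblasts of newborn mouse skin after 6 days of culture (passage 1). In 3 libraries, called caNrf2, the mice combined Col1a2Cre with caNrf2, a mutant Nrf2 that is constitutively active; Nrf2 is a transcription factor known for driving antioxidant and detoxification genes. In the other 3, called ctrl, they came from mice with Col1a2Cre alone. Thus all mice carried the Cre recombinase, which the Col1a2 promoter expresses in fibroblasts, and all had a mixed background of 50% C57Bl/6 and 50% FVB/N. The study states that 3 mice were used per group. The labels give a group and a number per library, so each library was taken as a separate mouse, and if that does not hold the p-values may measure technical spread.

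Hyaluronan is spun out through the plasma membrane by the synthases, which join UDP-glucuronic acid and UDP-N-acetylglucosamine, and in dermal fibroblasts HAS2 is known as the main synthase. HYAL2, at the cell surface, cuts long chains into fragments, which HYAL1 degrades further in lysosomes. CD44 is the main cell surface receptor for hyaluronan. Versican (Vcan) and aggrecan (Acan) are lecticans, chondroitin sulfate proteoglycans that bind hyaluronan through their N-terminal domain, and the link protein HAPLN1 fastens them to the chain.

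Total expected counts per library ranged from 37032008 to 44925935 in caNrf2 and from 30168400 to 45164208 in ctrl. Values per library are CPM (counts scaled to a common library size, with TMM factors) unless TPM (the deposited measure that also corrects for transcript length) is named. A gene is called higher or lower in caNrf2 where edgeR's quasi-likelihood test gave a Benjamini-Hochberg adjusted p under 0.05 over all 15341 genes tested. Of these, 21.5% were called, 12.5% higher and 9.03% lower, and the median log2 fold change of all genes was near 0. Nfe2l2, which encodes Nrf2, had 352, 430 and 358 CPM in caNrf2, against 113, 103 and 112 CPM in ctrl (log2 fold change 1.8, SE 0.10, edgeR adjusted p 5.96e-06), with reads of the resident gene and the transgene counted together. Markers of fibroblasts were abundant in every library, with a sum over 12 genes of 32686 to 38055 CPM in caNrf2 and 43898 to 60820 CPM in ctrl, and 2 of the 12 were called higher and 6 lower. All 17 tested markers of macrophages and leukocytes were called higher, and their list summed to 87.4 to 106 CPM in caNrf2 and 14.5 to 34.2 CPM in ctrl. The 1 marker of this list that was not tested, Cd163, had 0.0271 CPM in caNrf2 replicate 1 and was listed at 0 in the other libraries. Of 14 tested skeletal muscle markers 10 were called higher (sum 261 to 353 CPM in caNrf2, 182 to 199 CPM in ctrl). Of 9 tested endothelial markers 1 was called higher, as were 2 of 11 for melanocytes and Schwann cells. The part of these other cells in the results below was not tested, and in bulk RNA a change in the number of cells of a type and a change in RNA per cell cannot be told apart.

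Splicing and promoter sequences are given first for the members on which the results turn. Vcan is spliced into forms that differ in 2 large exons for the chondroitin sulfate chains, of 2880 bases (GAG-alpha) and 5217 bases (GAG-beta): V0 has both, V1 the second, V2 the first and V3 neither. Exon 6 (chr13:89712205-89712498, GRCm38, minus strand) is followed by a different exon in V0, V1 and V3. The last 15 bases of exon 6 are in lower case and the first 15 of the next exon in capitals.
Vcan V0 junction: cctactgctttaaacCTAAACAGAATATAT
Vcan V1 junction: cctactgctttaaacGTCGATTGAGTGATA
Vcan V3 junction: cctactgctttaaacGACCTGATCTCTGCA
Cd44 exon 5 (chr2:102853015-102853236, GRCm38, minus strand) joins either the first constant exon after the variable block, as in the standard form, or a variable exon of 117 bases, as in the transcript Cd44-207. The 2 junctions are shown in the same way because these were the most abundant Cd44 transcripts.
Cd44 standard junction: gcaccttggccaccaGAGATCGAGACTCAT
Cd44-207 junction: gcaccttggccaccaATATAGACAGAATCA

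Promoters (250 bases before to 50 after the start, RefSeq, GRCm38.p6) were available for 7 of the 9 genes, all but Has2 and Has3. They were searched on both strands for the core of the antioxidant response element, the site that Nrf2 binds (TGACNNNGC), the AP-1 site (TGANTCA), the TATA box (TATAAA) and the GC box (GGGCGG). The antioxidant response element core was in 1 of the 7, at base 30 of Vcan counted from 1 at the start, and in 12.4% of 32851 promoters. A GC box was in 5 of the 7 and in 35.7% of all, while neither AP-1 (7.81% of all) nor TATA (13.6%) was in any of the 7. A match is a run of letters and does not show binding. The promoters of Hyal2 and Vcan, the members called higher and lower with the most reads, are printed with these matches in capitals.
Hyal2 promoter, chr9:107568913-107569212, plus strand: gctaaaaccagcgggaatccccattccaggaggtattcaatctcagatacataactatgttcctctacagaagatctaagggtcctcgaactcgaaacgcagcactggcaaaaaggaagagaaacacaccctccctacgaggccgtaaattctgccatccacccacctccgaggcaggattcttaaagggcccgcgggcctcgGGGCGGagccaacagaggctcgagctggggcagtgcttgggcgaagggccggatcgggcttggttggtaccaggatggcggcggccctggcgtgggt
Vcan promoter, chr13:89742463-89742762, minus strand: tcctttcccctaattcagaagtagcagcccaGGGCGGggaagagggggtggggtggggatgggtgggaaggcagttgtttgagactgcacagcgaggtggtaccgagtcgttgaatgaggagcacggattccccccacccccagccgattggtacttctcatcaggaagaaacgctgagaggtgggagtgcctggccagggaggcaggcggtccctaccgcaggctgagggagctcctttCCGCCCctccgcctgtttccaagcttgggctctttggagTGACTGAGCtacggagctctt
In Hyal2 the capitals mark 1 GC box, at base -47. In Vcan they mark 2 GC boxes and, last, the antioxidant response element core.

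Of the 9 genes, 8 passed the filter on low counts, and 2 of these were called higher (Hyal2 and Has3), 1 lower (Vcan) and 5 not called. The share called among all genes was 21.5%. The 9 were chosen for their role and with earlier results of these data known, so these counts say nothing about hyaluronan genes as a class. Has3 passed the filter through caNrf2, the group where it was higher. Over the alternative fits its call held in 9 of 15, against 12 of 16 for Vcan and 16 of 16 for Hyal2. The groups did not overlap in CPM for 2 genes that were higher and 2 that were lower, against 42.1% of all genes in either direction (22% higher and 20.1% lower).

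**Figure D1:**
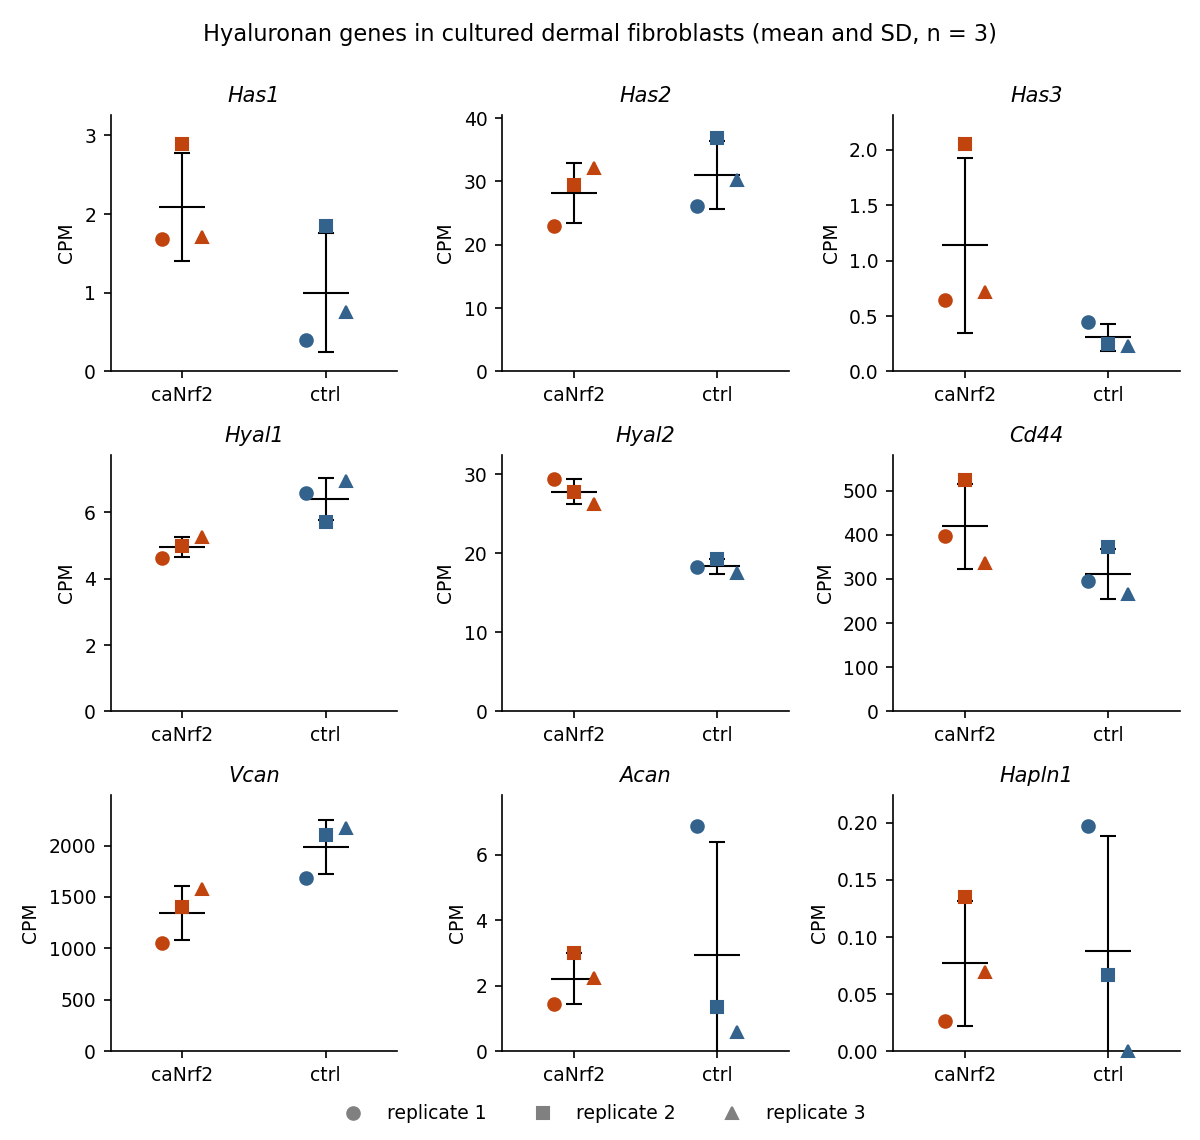
CPM (y axis, linear, from 0) of each of the 9 genes in each library, with caNrf2 left of ctrl; marker shapes give the replicate number and lines the mean and SD of 3 libraries, cut off at 0. Hyal2 lay at 26.2 to 29.4 CPM in caNrf2 and 17.5 to 19.3 CPM in ctrl, while the groups overlapped for Has1, Has2, Cd44, Acan and Hapln1.

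Has2 (ENSMUSG00000022367, chr15:56665627-56694539, minus strand) was the most abundant synthase in every library and did not pass the test. It had 22.9, 29.4 and 32.1 CPM in caNrf2, against 26.2, 36.8 and 30.2 CPM in ctrl. The groups overlapped, and the log2 fold change was -0.14 (SE 0.15, 95% interval -0.49 to 0.20, edgeR adjusted p 0.539). Has2 held 85.0%, 79.3% and 88.2% of the summed TPM of the 3 synthases in caNrf2, against 95.2%, 89.8% and 94.2% in ctrl. These shares do not overlap, but they were not tested, and neither Has2 nor Has1 was called. Has1 held most of the rest, with 13%, 16.3% and 9.76% in caNrf2 and 2.96%, 9.42% and 4.96% in ctrl.

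Has1 (ENSMUSG00000003665, chr17:17843328-17855188, minus strand), a synthase known to be induced by inflammatory signals, had 1.68, 2.89 and 1.70 CPM in caNrf2, against 0.395, 1.85 and 0.760 CPM in ctrl. Replicate 2 of ctrl lay above 2 of the caNrf2 libraries. The log2 fold change was 1.02 (SE 0.48, 95% interval -0.07 to 2.11), and Has1 was not called (edgeR adjusted p 0.166). Without ctrl replicate 2 the log2 fold change was 1.87 and Has1 was called.

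Has3 (ENSMUSG00000031910, chr8:106870242-106884566, plus strand), a synthase prominent in epidermal keratinocytes, was called higher at very low counts. It had 24, 91 and 31 expected counts in caNrf2 and 16, 11 and 7 in ctrl, or 0.650, 2.05 and 0.714 CPM in caNrf2 and 0.451, 0.246 and 0.231 CPM in ctrl. Replicate 2 of caNrf2 stood well above the other libraries. The log2 fold change was 1.88 (SE 0.53, 3.69-fold, edgeR adjusted p 0.0347). The call was lost without caNrf2 replicate 2 (1.13) and without ctrl replicate 1 (2.23), 2 (1.72) or 3 (1.74). In TPM, caNrf2 replicate 1 and ctrl replicate 1 had the same value, 0.22. Has3 passed the filter through caNrf2, where 3 libraries reached the 0.248 CPM needed, against 1 ctrl library. For this reason nothing is read from its call. Markers of keratinocytes summed to 307, 478 and 390 CPM in caNrf2 and 301, 180 and 198 CPM in ctrl, highest in the library with most Has3, and 2 of 11 tested were called higher. Their most abundant gene, Krt5, had 95.9, 167 and 142 CPM in caNrf2 and 115, 71.7 and 72.9 CPM in ctrl, no marker of the list was at 0 in all libraries, and the part of keratinocytes in Has3 was not tested. Exons of Has3 share 352 bases with Chtf8 on the other strand, which had up to 126 CPM in caNrf2 and 129 CPM in ctrl, and with no strand setting given its reads cannot be told apart from those of Has3 there.

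Hyal2 (ENSMUSG00000010047, chr9:107567945-107572779, plus strand), the surface hyaluronidase, rose in caNrf2 and had the smallest p of the 9 genes. It had 29.4, 27.7 and 26.2 CPM in caNrf2, against 18.2, 19.3 and 17.5 CPM in ctrl. Every caNrf2 library lay above every ctrl library. Means were 27.8 ± 1.62 CPM in caNrf2 and 18.3 ± 0.93 CPM in ctrl (SD, n = 3 each), with a log2 fold change of 0.60 (SE 0.08, 1.51-fold, edgeR adjusted p 0.00126). The call held in all 16 alternative fits, with log2 fold changes of 0.55 to 0.64. In TPM Hyal2 had 31.5, 29.7 and 27.9 in caNrf2 and 22, 26.6 and 20.2 in ctrl, again without overlap. Its most abundant transcript held 80.7%, 90.9% and 91.0% of that in caNrf2 and 75.8%, 68.7% and 82.7% in ctrl. These shares overlap, and transcript usage of Hyal2 was not called (edgeR diffSpliceDGE adjusted p 1.00).

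Hyal1 (ENSMUSG00000010051, chr9:107576927-107581710, plus strand), the lysosomal hyaluronidase, lies 4147 bases downstream of Hyal2. It had 4.63, 4.98 and 5.25 CPM in caNrf2, against 6.57, 5.72 and 6.94 CPM in ctrl. The groups did not overlap in CPM, with caNrf2 below ctrl, but in TPM caNrf2 replicate 3 (4.06) lay above ctrl replicate 2 (4.0). Hyal1 was not called (log2 fold change -0.37, SE 0.13, edgeR adjusted p 0.0803), nor was it in any of 16 alternative fits. Its exons share 1920 of 3777 bases (50.8%) with Naa80 on the same strand, so that the division of reads between them is an estimate and the value of Hyal1 is uncertain. The CPM ratio of Hyal2 to Hyal1 was 6.36, 5.56 and 4.99 in caNrf2, against 2.78, 3.38 and 2.51 in ctrl. Since Hyal2 was higher and Hyal1 lower without overlap in CPM, this ratio had to separate the groups. It differed by 0.97 on the log2 scale and was chosen after its values were seen. The two-sided exact permutation test over libraries had to give p = 0.1, the smallest that 3 against 3 allows, so nothing is read from it.

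The genes whose log2 CPM ran closest to that of Hyal2 over the 6 libraries were Chid1, Spire2 and Ak1, by Pearson correlation among 15341 genes. Chid1 had 57.5, 55.7 and 54.7 CPM in caNrf2 and 46.6, 47.4 and 45.7 CPM in ctrl. Spire2 had 6.79, 5.82 and 5.04 CPM in caNrf2 and 2.00, 2.50 and 1.92 CPM in ctrl. Ak1 had 338, 321 and 298 CPM in caNrf2 and 173, 195 and 169 CPM in ctrl. With 2 separate groups such likeness mostly states that all were higher in caNrf2, and it is given as a description.

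Cd44 (ENSMUSG00000005087, chr2:102811141-102901665, minus strand), the receptor, was abundant in all libraries and was not called. It had 397, 525 and 335 CPM in caNrf2, against 296, 373 and 265 CPM in ctrl. Replicate 3 of caNrf2 lay below replicate 2 of ctrl, and in both groups replicate 2 was highest and replicate 3 lowest. The log2 fold change was 0.43 (SE 0.18, 95% interval 0.02 to 0.83, edgeR adjusted p 0.123). DESeq2 called it, with the same log2 fold change of 0.43 (adjusted p 0.0476, within 0.0100 to 0.366 over the 16 alternatives). Leukocytes and keratinocytes are known to carry CD44 too, and the sums of their markers given above were higher in caNrf2. For keratinocytes the sums nearly met (307 CPM in caNrf2 replicate 1, 301 CPM in ctrl replicate 1), and 9 of 11 tested markers were not called. The part of both cell types in Cd44 was not tested.

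Vcan (ENSMUSG00000021614, chr13:89655312-89742509, minus strand), the large proteoglycan of loose dermal matrix, was the most abundant of the 9 genes and fell in caNrf2. It had 1057, 1399 and 1576 CPM in caNrf2, against 1685, 2107 and 2166 CPM in ctrl. The highest caNrf2 library lay just below the lowest ctrl library. Means were 1344 ± 263 CPM in caNrf2 and 1986 ± 262 CPM in ctrl (SD, n = 3 each), with a log2 fold change of -0.56 (SE 0.16, 0.677-fold, edgeR adjusted p 0.0335). The call was lost without caNrf2 replicate 1 (-0.42) or 2 (-0.60) and without ctrl replicate 2 (-0.52) or 3 (-0.50).

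Acan (ENSMUSG00000030607, chr7:79053483-79115099, plus strand), the proteoglycan of cartilage, was low and varied most within ctrl. It had 1.43, 3.00 and 2.23 CPM in caNrf2, against 6.88, 1.36 and 0.595 CPM in ctrl. Replicate 1 of ctrl was the highest of all libraries and replicate 3 of ctrl the lowest. The log2 fold change was -0.40 (SE 0.71, edgeR adjusted p 0.724), and without ctrl replicate 1 it was 1.13, also not called. Col2a1, the collagen that defines cartilage, named after its values were seen and not tested, had 0.189, 0.0902 and 0.0461 CPM in caNrf2 and 0.592, 0.179 and 0.132 CPM in ctrl, with its highest value in ctrl replicate 1. Some other markers of the list, such as Col9a2, were also highest in ctrl replicate 1, while others peaked elsewhere. Col11a1, the most abundant, had 120, 116 and 137 CPM in caNrf2 and 132, 116 and 102 CPM in ctrl. The chondrocyte list summed to 135 to 161 CPM in caNrf2 and 119 to 148 CPM in ctrl, with 1 of 7 tested genes called (lower) and Snorc at 0 throughout. The part of cartilage cells in Acan was not tested.

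Hapln1 (ENSMUSG00000021613, chr13:89540636-89611832, plus strand), the link protein gene, is a neighbour of Vcan, 43479 bases away. It had 1, 6 and 3 expected counts in caNrf2, against 7, 3 and 0 in ctrl, and was not tested. A count of 0 allows up to 3 counts, which is 0.0994 CPM in ctrl replicate 3, so no fold is given.

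**Figure D2:**
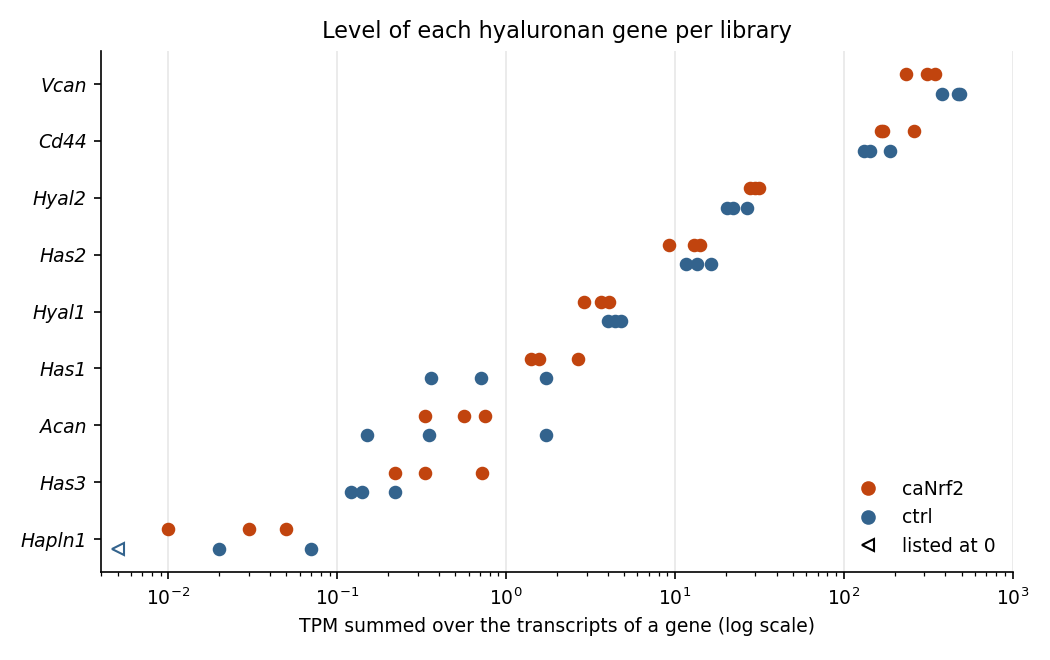
TPM summed over the transcripts of each gene (x axis, log scale) for each library, caNrf2 above ctrl within each gene; the open triangle marks a library listed at 0. Mean TPM ran from 297 for Vcan to 0.03 for Hapln1 in caNrf2 and from 449 for Vcan to 0.03 for Hapln1 in ctrl.

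The order of the 9 genes by mean TPM was the same in both groups. Vcan averaged 297 ± 57.2 TPM in caNrf2 and 449 ± 57.8 TPM in ctrl, and Cd44 came second, with 199 ± 53.0 TPM in caNrf2 and 154 ± 29.0 TPM in ctrl (SD, n = 3 each). Hyal2 followed with 29.7 TPM in caNrf2 and 22.9 TPM in ctrl, then Has2 with 12.1 TPM in caNrf2 and 13.8 TPM in ctrl. Hyal1 (3.53 TPM in caNrf2, 4.4 TPM in ctrl), Has1 (1.88 TPM in caNrf2, 0.93 TPM in ctrl), Acan (0.547 TPM in caNrf2, 0.743 TPM in ctrl), Has3 (0.423 TPM in caNrf2, 0.16 TPM in ctrl) and Hapln1 (0.03 TPM in each) came last. The ranges of neighbours in this order overlapped for Vcan and Cd44 in caNrf2, for Has1 and Acan in ctrl, and for Acan and Has3 in both groups. The synthases summed to 10.8 to 16.3 TPM in caNrf2 and 12.2 to 18.3 TPM in ctrl, with overlap.

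Splicing of Vcan and Cd44 was compared as shares of each gene's TPM. V1, with the GAG-beta exon alone, was the main Vcan form, at 59.8%, 67.5% and 67.1% in caNrf2 and 66.2%, 64.6% and 67.3% in ctrl. V0 held 18.8%, 19.9% and 20.7% in caNrf2 and 19.9%, 21.8% and 20% in ctrl, and V2 at most 0.0318% in any library. Incomplete transcripts, not assigned to any of these forms, held 14.6%, 7.49% and 7.19% in caNrf2 and 11.4%, 9.91% and 9.87% in ctrl. V3, which lacks both chain-bearing exons, held 6.74%, 5.10% and 5.05% in caNrf2, against 2.55%, 3.63% and 2.77% in ctrl. The groups did not overlap in the V3 share, but it was not called by either test over all transcripts (adjusted p 0.383 with edgeR diffSpliceDGE, 0.669 with limma on log ratios). In level, V3 had 15.8, 15.9 and 17.5 TPM in caNrf2 and 9.74, 17.2 and 13.6 TPM in ctrl, with overlap. The annotated last exons of V0, V1 and V3 differ in length (2047, 1019 and 303 bases), so these shares also reflect reads in the last exon.

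Cd44 was divided about evenly between the standard form and forms with variable exons, which lengthen the extracellular stalk. The standard form held 45.2%, 52.9% and 51.5% in caNrf2 and 48.9%, 51.8% and 50.8% in ctrl. Forms with variable exons held 54.2%, 45.2% and 46.3% in caNrf2 and 49.3%, 46.1% and 47.6% in ctrl, most of it Cd44-207 (40.7% to 50.2% in caNrf2, 41.9% to 43.8% in ctrl). The ranges overlapped for both. Cd44-207 has a last exon of 3197 bases against 1791 in the standard transcript, so reads of a longer last exon cannot be told from use of variable exons. Cd44-205, a minor form, had 0.54, 0.40 and 0.62 TPM in caNrf2 and was listed at 0 in the 3 ctrl libraries. Its expected counts in caNrf2 were 17.1, 13.9 and 21.3, against a ctrl group at 0, where up to 3 counts per library are allowed, so it entered the usage tests through caNrf2 alone and no fold is given. It had an adjusted p of 0.0418 with diffSpliceDGE and 0.728 with limma, from which nothing is read. Transcript usage of the whole gene was called for none of the 4 members with several tested transcripts by either test (Cd44 adjusted p 0.0793 with edgeR diffSpliceDGE and 0.831 with limma; Vcan 0.657 and 0.783). Cd44 (p 0.000771) and Vcan (p 0.0149) had an unadjusted p under 0.05 with diffSpliceDGE and none of the 4 had with limma. Both diffSpliceDGE values of Cd44, adjusted and unadjusted, rest on Cd44-205. It was the only tested Cd44 transcript with a usage adjusted p under 0.05, so nothing is read from these Cd44 values either. Of all 7992 genes, 3.7% had an unadjusted p under 0.05 with diffSpliceDGE and 6.37% with limma. At the adjusted threshold 0.801% of these genes were called by diffSpliceDGE and 0.0876% by limma.

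**Figure D3:**
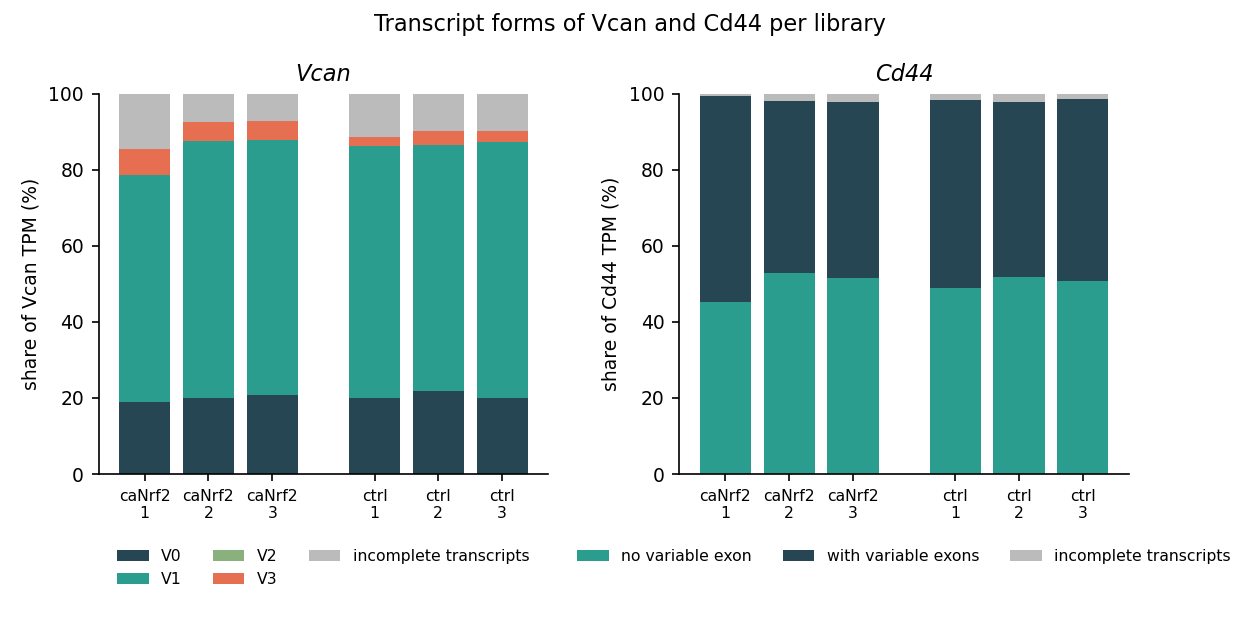
Share of TPM (y axis, %, stacked to 100) held by each transcript form of Vcan (left) and Cd44 (right) in each library, caNrf2 libraries left of ctrl. V1 held 59.8% to 67.5% of Vcan in caNrf2 and 64.6% to 67.3% in ctrl, and V2 is too small to see.

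Around these genes, 72 others of the pathway were listed by role in 8 lists, and 55 were tested. Of these 13 were called higher, 12 lower and 30 not called, so 45.5% were called, against 21.5% of all genes (12.5% higher and 9.03% lower). The lists were chosen with earlier results of these data known, so nothing is read from this difference or from the counts per list below. The median log2 fold change of the 55 tested genes was near 0, like that of all genes. Genes with the smallest adjusted p in each list and direction are named, with mean CPM ± SD of 3 libraries, and the tests are edgeR's.

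**Figure D4:**
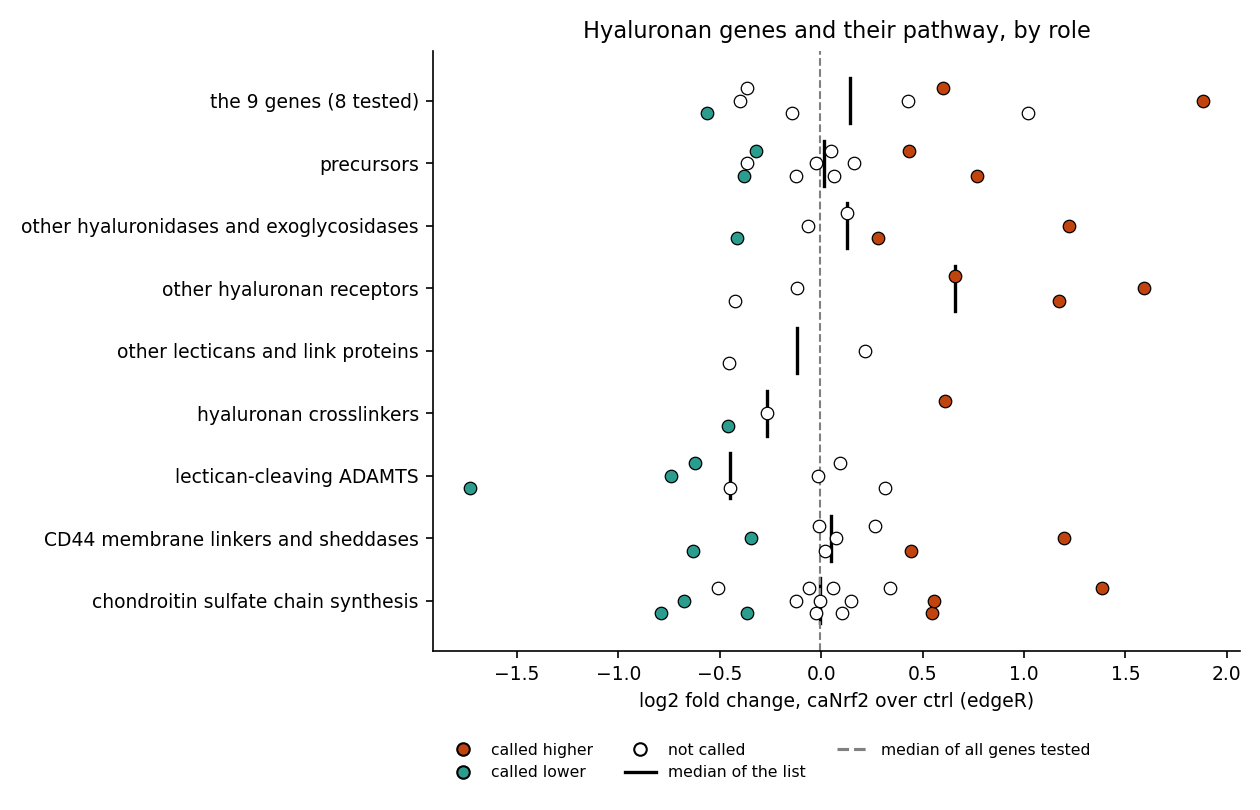
Log2 fold change, caNrf2 over ctrl (x axis), of each tested gene among the 9 genes and 8 pathway lists (rows); filled points are called higher or lower, open points are not called, black bars are list medians and the dashed line the median of all genes. Medians run from -0.45 for the lectican-cleaving ADAMTS genes to 0.66 for the other receptors, which have 7 and 5 tested genes.

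Enzymes that make the UDP-sugars and transporters that carry them changed in both directions, with 2 of 10 called higher, 2 lower and 6 not called. Gpi1, the isomerase that makes the fructose phosphate from which hexosamines start, rose to 438 ± 11.6 CPM in caNrf2, against 257 ± 16.8 CPM in ctrl (1.70-fold, adjusted p 0.000346). Slc35d1, a transporter of UDP-glucuronic acid into the endoplasmic reticulum, rose to 20.1 ± 1.07 CPM in caNrf2, against 14.9 ± 0.682 CPM in ctrl (1.35-fold, adjusted p 0.00722). Gfpt1, the first and rate-limiting enzyme of hexosamine synthesis, fell to 150 ± 12.8 CPM in caNrf2, against 187 ± 2.96 CPM in ctrl (0.801-fold, adjusted p 0.0286), and Gnpnat1, which acetylates glucosamine phosphate, to 34.1 ± 3.67 CPM in caNrf2, against 44.4 ± 2.69 CPM in ctrl (0.768-fold, adjusted p 0.0219). Gfpt1 lost its call without caNrf2 replicate 2 (log2 fold change -0.34) or ctrl replicate 1, 2 or 3 (-0.33, -0.33 and -0.31). Gnpnat1 lost its call without caNrf2 replicate 2 or 3 (-0.31 and -0.40) or ctrl replicate 1 or 3 (-0.38 and -0.35). Ugdh, which makes UDP-glucuronic acid and is named after its values were seen, had 168 ± 3.52 CPM in caNrf2 and 161 ± 6.06 CPM in ctrl and was not called (adjusted p 0.587).

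Among 10 other genes of hyaluronan breakdown, 5 were tested, with 2 called higher and 1 lower. Cemip, a hyaluronan-binding protein that dermal fibroblasts need to depolymerize hyaluronan, had 309, 432 and 353 CPM in caNrf2, against 176, 181 and 112 CPM in ctrl. All caNrf2 libraries lay well above ctrl (2.33-fold, log2 fold change 1.22, SE 0.19, adjusted p 0.00250). Gusb, the lysosomal glucuronidase, rose 1.22-fold (adjusted p 0.0260). Gusb lost its call without caNrf2 replicate 2 or 3 (log2 fold change 0.23 and 0.30) or ctrl replicate 1 or 3 (0.27 and 0.24). Hexa, a lysosomal hexosaminidase gene and the gene of the list with the highest mean TPM, had 162 ± 12.3 CPM in caNrf2 and 148 ± 21.2 CPM in ctrl and was not called (adjusted p 0.461). The hyaluronidase genes Hyal4, Hyal5 and Spam1 were at 0 in all libraries, which allows up to 0.0994 CPM.

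Of 8 other hyaluronan receptors, 5 were tested and 3 called, each of them higher. Of all genes 12.5% were called higher, and nothing is read from the count in this list. Layn, which encodes the hyaluronan-binding membrane lectin layilin, had 65.4, 72.0 and 66.8 CPM in caNrf2, against 30.3, 30.1 and 30 CPM in ctrl. The spread within groups was small beside this difference (2.26-fold, log2 fold change 1.17, SE 0.07, adjusted p 7.57e-06). Tlr4, an innate immune receptor reported to respond to hyaluronan fragments, rose to 18.7 ± 2.29 CPM in caNrf2, against 11.9 ± 0.119 CPM in ctrl (1.58-fold, adjusted p 0.00285). The third was Stab1, a scavenger receptor of macrophages and some endothelia, named after its values were seen, with 16.5, 27.9 and 19.2 CPM in caNrf2 and 3.33, 9.11 and 8.63 CPM in ctrl (3.01-fold, adjusted p 0.0105). The library highest in Stab1, caNrf2 replicate 2, also had the highest macrophage sum (106 CPM), and the library lowest in Stab1, ctrl replicate 1, the lowest (14.5 CPM). Csf1r, the most abundant macrophage marker, had 13.7, 14.8 and 13 CPM in caNrf2 and 2.96, 5.87 and 4.89 CPM in ctrl. The part of macrophages in Stab1, and in Tlr4, which they also express, was not tested. All 3 receptors were called in each of the 16 alternative fits.

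Few of the other genes that bind or crosslink hyaluronan outside the cell passed the filter. Of 5 other lecticans and link proteins 2 were tested and neither was called: Hapln4 had 0.653 ± 0.258 CPM in caNrf2 and 0.908 ± 0.330 CPM in ctrl (adjusted p 0.426), and Hapln3, named after its values were seen, had an adjusted p of 0.723. Neither had an unadjusted p under 0.05, and neither was called by DESeq2 or limma-voom. Of 8 crosslinkers, the inter-alpha-trypsin inhibitor chains, TSG-6 and pentraxin, 3 were tested, with 1 called higher and 1 lower. Ptx3, the pentraxin that joins hyaluronan-bound protein complexes, fell to 456 ± 62.7 CPM in caNrf2, against 627 ± 72.4 CPM in ctrl (0.729-fold, adjusted p 0.0313). Itih5, an inter-alpha-trypsin inhibitor heavy chain, rose to 39.0 ± 4.13 CPM in caNrf2, against 25.6 ± 6.99 CPM in ctrl (1.53-fold, adjusted p 0.0432). Ptx3 lost its call without caNrf2 replicate 2 or 3 (log2 fold change -0.38 and -0.45) or ctrl replicate 1 or 3 (-0.37 and -0.50). Itih5 lost its call without caNrf2 replicate 1, 2 or 3 (0.64, 0.51 and 0.66) or ctrl replicate 2 or 3 (0.41 and 0.62), and with upper-quartile factors (0.57) or total counts (0.59).

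The ADAMTS proteases that cut versican and aggrecan had 3 of 7 called, each of them lower, and a median log2 fold change of -0.45. Of all genes 9.03% were called lower, and since the list was chosen with earlier results known, nothing is read from this count. Adamts1, the most abundant, had 703, 668 and 744 CPM in caNrf2, against 1084, 1134 and 1032 CPM in ctrl (0.651-fold, log2 fold change -0.62, SE 0.09, adjusted p 0.00121). Adamts15 had 5.52, 2.82 and 5.85 CPM in caNrf2, against 14.7, 9.85 and 22.7 CPM in ctrl (0.301-fold, adjusted p 0.00732). Adamts9, named after its values were seen, had 43.5, 64.8 and 51.8 CPM in caNrf2, against 94.8, 96.2 and 76.5 CPM in ctrl (0.598-fold, adjusted p 0.00787). None of these groups overlapped, and each of the 3 calls held in all 16 alternative fits. Adamts4, also named after its values were seen, was higher in each caNrf2 library than in any ctrl library, with 48.4, 50.6 and 58.6 CPM in caNrf2 and 35.6, 45.7 and 45.2 CPM in ctrl, and was not called (log2 fold change 0.32, adjusted p 0.0837). Adamts5, named after its values were seen too, had a log2 fold change of -0.45 with overlapping groups and was not called (adjusted p 0.0652).

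Proteins that join CD44 to the cytoskeleton or shed it had 2 of 8 called higher, 2 lower and 4 not called. Ezr, which encodes the actin linker ezrin, had 29.6, 35.9 and 28.9 CPM in caNrf2, against 14.9, 12.7 and 13.6 CPM in ctrl (2.29-fold, adjusted p 0.000119), while Rdx, which encodes its relative radixin, fell 0.787-fold (adjusted p 0.0296). Ezrin is also abundant in epithelia, and the part of keratinocytes, whose marker sums are given beside Has3, was not tested. Mmp14, a membrane protease that sheds CD44, had 496, 445 and 546 CPM in caNrf2, against 688, 754 and 866 CPM in ctrl (0.644-fold, adjusted p 0.00521). Ank3, which encodes the adaptor ankyrin-G, rose 1.36-fold (adjusted p 0.0250). Ank3 lost its call without caNrf2 replicate 2 or 3 (log2 fold change 0.40 and 0.35) or ctrl replicate 1, 2 or 3 (0.47, 0.45 and 0.40). Rdx lost its call without caNrf2 replicate 1 or 3 (-0.28 and -0.38) or ctrl replicate 1 or 2 (-0.29 and -0.36).

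The enzymes that build the chondroitin sulfate chains of versican and aggrecan had 3 of 15 called higher, 3 lower and 9 not called. Chpf2, a chondroitin polymerizing factor, had 320, 308 and 293 CPM in caNrf2, against 102, 131 and 119 CPM in ctrl (2.62-fold, log2 fold change 1.39, SE 0.11, adjusted p 3.66e-05). The sulfotransferase gene Chst12 rose to 90.6 ± 4.83 CPM in caNrf2, against 61.9 ± 2.72 CPM in ctrl (1.46-fold, adjusted p 0.00106). Csgalnact1 and Csgalnact2 encode the transferases that start the chain. Csgalnact1 had 102, 81.1 and 129 CPM in caNrf2, against 157, 171 and 210 CPM in ctrl (0.579-fold, adjusted p 0.0114). Csgalnact2 had 48.0, 48.1 and 49.9 CPM in caNrf2, against 70.1, 59.6 and 58.1 CPM in ctrl (0.778-fold, adjusted p 0.0171), and lost its call without caNrf2 replicate 2 (log2 fold change -0.36). The others, named after their values were seen, were the sulfotransferase genes Chst15 (1.47-fold, adjusted p 0.00458) and Chst3 (0.626-fold, adjusted p 0.0481). Chst3 was called in 8 of 16 alternative fits and lost its call without caNrf2 replicate 1, 2 or 3 (-0.63, -0.65 and -0.76) or ctrl replicate 1 or 3 (-0.63 and -0.62), and with DESeq2 or no filter (-0.68 each).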

How the data were processed

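RNA-seq tables of 6 libraries, 3 caNrf2 and 3 ctrl, were used, with groups and replicate numbers from the sample titles. Each deposited table lists 104129 transcripts of 43629 genes (GRCm38) with expected counts, TPM and FPKM made by the authors, per the file headers. The submitters' processing notes name RSEM 1.2.21 and CASAVA 1.8. Not given in the sources used here are the aligner, the strand setting and the annotation release. RSEM divides reads shared by several transcripts by estimate, so shares of transcripts and values of overlapping genes are less certain than gene totals.

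Expected counts (maximum likelihood) were summed per gene and rounded. The test was that of edgeR 4.0.16 (R 4.3.3) after filterByExpr (minimum count 10, minimum total count 15) and TMM scaling: the two-sided quasi-likelihood test without a block. P-values were adjusted by Benjamini-Hochberg over all genes, with a threshold of 0.05. Standard errors of log2 fold changes come from the F statistic. A library total of 30168400 to 45164208 makes 3 counts worth 0.0664 to 0.0994 CPM, and this floor covers counting error only. Transcript usage was tested with diffSpliceDGE and, added after simulated data showed many false calls by it, with limma 3.58.1 on log2 ratios (pseudocount 1). Both edgeR tests were tested on simulated data. No 2 libraries agreed within sampling noise. Deposited TPM, per the file headers, served for levels and shares, and deposited FPKM for 1 alternative.

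The 9 genes and all lists were chosen with earlier results of these data known. From each pathway list, the named genes are the 1 with the highest mean TPM and the 2 called higher and 2 called lower of smallest adjusted p; 1 of them is not reported here. Other genes are marked as named after their values were seen. Alternatives were DESeq2 1.42.0, limma-voom, other size factors or total counts, a stricter filter (minimum count 50) or none, unrounded and posterior mean counts, each library left out, and the replicate number as a block. Gene symbols were matched by ID, and overlaps between genes come from the exon coordinates in the deposited tables. GENCODE M21 (GRCm38) gave the transcript names and the junction sequences.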

Additional observations from a re-analysis of the deposited data

How the results depend on the processing

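Gene results were refitted under 16 alternatives (15 for Has3, Hapln4 and Col9a2), transcript usage under up to 12 and mean TPM under 5. Hyal2 kept its call in all 16, and Has2, Hyal1 and Acan were called in none. Leaving out each library in turn gave log2 fold changes of 1.13 to 2.23 for Has3, -0.70 to -0.42 for Vcan and -0.87 to 1.13 for Acan, and 0.63 to 1.87 for Has1, which was called without ctrl replicate 2. Acan turned positive without ctrl replicate 1 (1.13) and with limma-voom (0.24), Col11a1 (-0.000995 to 0.18) and Mitf (-0.15 to 0.083) changed sign without ctrl replicate 3; the cause was not tested. Has3 was not called with limma-voom (1.72) and was not tested under the stricter filter, and DESeq2 called Cd44 (0.43). Over the libraries left out, 823 to 1143 genes were called lower, with 823 without ctrl replicate 3 and 864 without caNrf2 replicate 2. Lists had 2 to 5 called for precursors, 1 to 3 for other hyaluronidases, 0 to 1 for crosslinkers, 2 to 3 for CD44 linkers and sheddases, and 16 to 23 over all 72 genes, with 16 without caNrf2 replicate 2. Crosslinkers also had 1 with upper-quartile factors and total counts. Genes with called transcript usage numbered 64, against 85 to 131 with a library left out, 23 under the stricter filter and 7 with limma; Cd44, Vcan, Hyal1 and Hyal2 were called in none of these. These fits had fewer samples or genes, or another test.

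Libraries with the same number deviated together with correlations of 0.214, 0.209 and 0.0953, and the labels do not say what a number marks, so they are not taken as pairs. With the replicate block 3218 genes were called, against 3302. Has1 (1.19) and Cd44 (0.42) were called with the block, Has3 (1.79), Rdx (-0.34), Itih5 (0.64) and Chst3 (-0.68) were not, Acan was at 0.16, crosslinkers had 1 call, and 35 genes had called transcript usage. Depth limits Has3, Has1, Acan and Hapln1, with at most 244 counts in a library.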
